A study of Mus musculus with 79 samples.

Results

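Macrophages were sorted from the nerve bridge of mice 5 and 14 days after a delayed nerve repair, and their transcripts at the later day were compared with those at the earlier day. The members were chosen by their labels alone, as the macrophage libraries of the delayed repair groups, which gave 16 of the 79 libraries of the series, 9 at day 5 (4 male and 5 female mice) and 7 at day 14 (4 male and 3 female). In every animal the tibial nerve had been cut and left without axons for 8 weeks before a freshly cut common peroneal nerve was joined to its distal stump through a silicone conduit. The tissue that grew inside the conduit, the regenerative bridge, was taken from a single animal per library and was not pooled. The mice of both days carried green fluorescent protein under the human S100β promoter, which marks Schwann cells, and the labels give no other allele. All mice had isoflurane for surgery and buprenorphine for pain, per the study's methods, and the labels name no drug by which the groups differ. The age of the animals is not given in the sources used here. Because different animals were killed at each day, the comparison is between groups of animals and not within an animal. Macrophages were sorted as viable cells positive for F4/80, CD14, CD16/32 and CD11b and negative for a mix of markers of granulocytes, eosinophils, B and T cells, fibroblasts, endothelium and red cells, and RNA from 1000 cells was amplified to cDNA before sequencing. Macrophages of immediate repair (8 libraries at each day) were used only to test where the delayed course differed.

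After a peripheral nerve is cut, blood monocytes enter the injury site, become macrophages, and clear myelin and dying cells. Early cells of this kind typically release chemokines and cytokines and burn glucose under low oxygen, and later ones take up debris and lipid, present antigen and shape the matrix through which Schwann cells and axons pass. MHC class II molecules, which load peptides for display to CD4 T cells, and the receptor AXL, which recognises dying cells, are typical of the later kind.

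The libraries held between 14928745 and 26942294 counts at day 5 and between 17624676 and 27972884 at day 14, and these totals did not separate the days (exact permutation p = 0.867, two-sided). More genes had a count at day 14, between 12794 and 13455 against 12429 to 13226 (exact permutation p = 0.00385, two-sided). A count of 3 corresponds to 0.201 CPM (a gene's counts scaled to a common library total) in the smallest library, and lower levels than that are not resolved. The 4 male libraries of day 5 stood apart from the other 12 on the first principal component, which held 25.7% of the variance, while the days separated mainly on the second, with 18.6%. At the other end of the first component day 14 replicate 4, a male, stood further out than any of these, at -42.9 against -19.04 for the next library, and on the second it lay at 1.96, among the day 5 males. Without it 544 genes were called between the days, 444 of them among the 547 called with it. Of 7933 genes tested between the sexes at day 5, 710 were called, against 0 of 7803 at day 14 with edgeR (212 at an unadjusted p under 0.05). The replicate numbers of males and females run in separate blocks, so sex and any shared handling of those animals cannot be told apart, and medians of the pathway lists within each sex are given where their signs were opposite. The 9 macrophage markers (Cd14, Itgam, Fcgr3, Emr1, Csf1r, Cd68, Lyz2, Fcer1g and Tyrobp) were present in every library, with a summed level of 16710.2 to 29757 CPM at day 5 and 25592 to 33101 at day 14.

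A gene was tested where 6 or more of the 16 libraries reached 5 CPM, which held for 8529 genes, and 547 of them were called at a Benjamini-Hochberg adjusted p under 0.05 in edgeR's quasi-likelihood test, which is 6.41% of those tested. Transcripts of 280 genes rose from day 5 to day 14 (3.28%) and transcripts of 267 fell (3.13%). With libraries scaled by their totals alone, 339 rose and 190 fell, so the balance of the directions depends on the scaling, while the median change of all genes moved by only 0.06 on the log2 scale. The change was 2-fold or more for 194 of the calls, 121 of them higher and 73 lower. In 128 genes (1.50%) every animal of one day lay beyond every animal of the other, and all 128 were called. An unadjusted p under 0.05 was reached by 1875 genes. A gene can meet the filter of 5 CPM in 6 libraries through 1 day alone, and its call is then a description and not support. Genes named below for which this holds include Cd4, Cd28 and Src through day 14 and Mmp8 and Ltb4r1 through day 5. As whole samples were measured, a fall can come from fewer cells of one kind or from less RNA per cell, and these cannot be told apart. Here and below, levels are CPM after TMM scaling (a correction for the makeup of each library), given as the lowest, median and highest animal, and changes are log2 fold changes of day 14 over day 5 with their standard error (SE) and edgeR's adjusted p.

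Among the largest falls were a pair of platelet-type CXC chemokines that macrophages also make. Ppbp, the precursor of a neutrophil-attracting chemokine, lay at 100.5, 225 and 302 CPM at day 5 and at 0.908, 9.92 and 24.4 CPM at day 14, so the highest animal of the later day was below the lowest of the earlier one. It fell by 4.01 (SE 0.50, adjusted p = 0.000113). Pf4, which encodes platelet factor 4, fell by 1.63 (SE 0.15, adjusted p = 1.78e-05), from 1604, 1815 and 2638 CPM to 437, 592 and 781 CPM, again with no overlap. Cxcl5, another attractant of neutrophils, fell by 3.05 (SE 0.50, adjusted p = 0.00109), from 17.3, 64.5 and 151 CPM to 2.55, 5.91 and 20.01 CPM, and the ranges overlapped narrowly. In the GRCm38 annotation Cxcl5 (chr5:90759360-90761624), Ppbp (chr5:90768518-90770063) and Pf4 (chr5:90772435-90773383) lie next to each other on the plus strand of chromosome 5. Because platelets carry Ppbp and Pf4, a list of 12 platelet and megakaryocyte genes without this pair was read beside them, chosen after the values were seen. Of these, 7 stayed under 1 CPM in every animal, and their summed level was 0.211 to 10.6 CPM at day 5 and 1.27 to 19.5 at day 14 (exact permutation p = 0.518 for their mean log2(CPM + 1), two-sided).

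The monocyte-attracting CC chemokines moved the same way. Ccl7 fell by 1.23 (SE 0.18, adjusted p = 0.000457), with 1469, 2034 and 2981 CPM at day 5 and 496, 938 and 1276 CPM at day 14 and no animal shared between the ranges. Ccl2 fell by 1.13 (SE 0.20, adjusted p = 0.00188), from a mean of 1049 CPM (SD 317, n = 9) to 478 (SD 139.6, n = 7), and Ccl4, made by activated macrophages, fell by 1.05 (SE 0.26, adjusted p = 0.0177). Cxcl1, an attractant of neutrophils, went from a mean of 4253 CPM (SD 2042) to 1684 (SD 848), a change of -1.34 (SE 0.35, adjusted p = 0.0279), and its call was lost in 3 of the 16 fits that each left out one library (values from -1.53 to -1.18). Of the 20 chemokines tested, 7 fell and 1 rose, where 3.13% of all genes fell and 3.28% rose. These shares are the background for every list described here, and a single member called in a list of this size is close to them. The chemokines had a median log2 fold change of -0.71 beside -0.0019 over all genes, and the 1 that rose was Cxcl12, which retains stem cells and guides neurons, at 2.34 (SE 0.60, adjusted p = 0.0223), a call lost with all 4 macrophage groups in 1 fit (2.34, adjusted p = 0.0905). Within each sex alone the list's median was -1.08 in males and -0.69 in females.

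Of the 20 inflammatory cytokines and mediators tested, 6 fell, beside 3.13% of all genes, and 0 rose (median -0.41, with 4 of the 20 values above 0). The 6 were Mif, Tnfsf9, Lif, Ptgs2, Csf3 and Il10, the last of which shuts down inflammatory output and is described below. Tnfsf9, a costimulator of T cells also called 4-1BB ligand, lay at 273, 358 and 548 CPM at day 5 and 45.7, 97.9 and 228 CPM at day 14 and fell by 1.702 (SE 0.31, adjusted p = 0.00237). Mif, which holds macrophages at sites of inflammation, fell by 0.94 (SE 0.16, adjusted p = 0.00141), and Lif, an injury cytokine that acts on neurons and Schwann cells, fell by 1.81 (SE 0.36, adjusted p = 0.00481), each without overlap between the days. Csf3, the growth factor of granulocytes, fell by 2.003 (SE 0.56, adjusted p = 0.0379), and its day 5 animals ran widely, at 74.9, 209 and 1112 CPM, against 20.8, 97.4 and 199 CPM at day 14. Ptgs2, the inducible enzyme of prostaglandin synthesis, fell by 1.52 (SE 0.42, adjusted p = 0.0329) from a mean of 2602 CPM (SD 1674, n = 9). The calls of Csf3 and of Ptgs2 were each lost in 10 of the 16 leave-one-out fits, with values from -2.25 to -1.66 for Csf3 and from -1.67 to -1.33 for Ptgs2. The genes of the best known early cytokines did not pass the test. Il1b had a change of -0.42 (SE 0.25, adjusted p = 0.365), Il1a of -0.42 (SE 0.39, adjusted p = 0.581), Tnf of -0.77 (SE 0.30, adjusted p = 0.1296) and Il6 of -0.04 (SE 0.32, adjusted p = 0.965). Within each sex the values were -0.81 in males and 0.06 in females for Il1b, -1.097 in males and 0.56 in females for Il1a, -1.11 in males and -0.36 in females for Tnf and -1.03 in males and 0.91 in females for Il6, and the test of the difference between the sexes passed for none of them (adjusted p 0.338, 0.194, 0.474 and 0.154). Tgfb1, which restrains inflammation, had 21.1, 70.7 and 105 CPM at day 5 and 72.3, 109.5 and 120.2 CPM at day 14, a change of 0.64 (SE 0.21, adjusted p = 0.0735), and was called in 2 of the 16 leave-one-out fits. Tnf was called in 1, without day 5 replicate 8. Ifng had 0 counts in all 16 libraries.

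**Figure D1:**
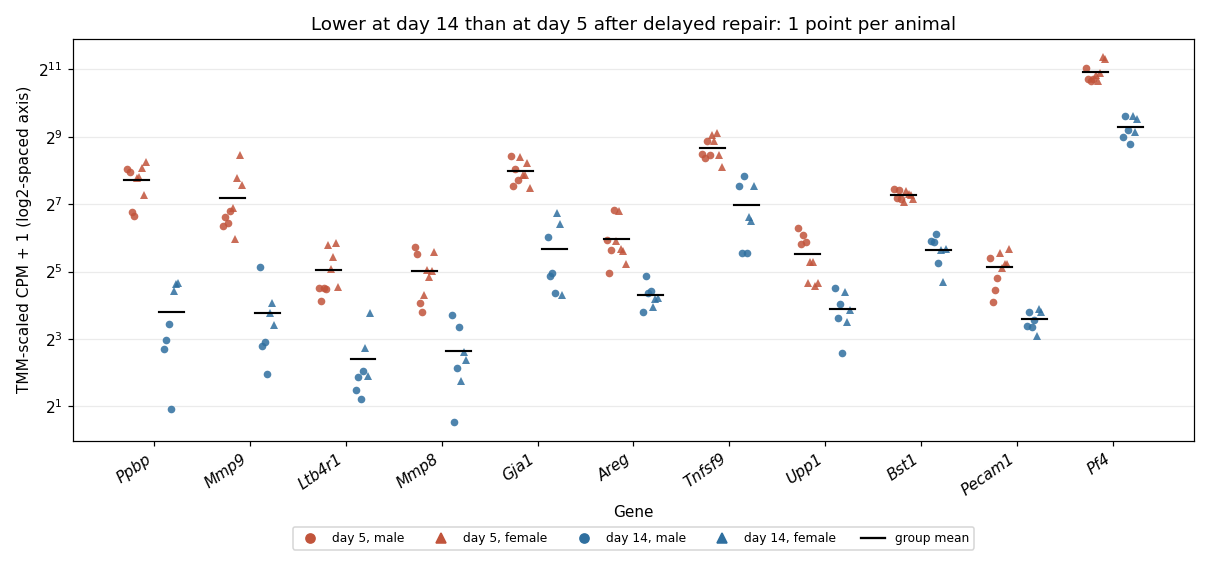
Level of 11 of the 12 genes with the largest falls among those with a mean of at least 20 CPM at the higher day and no overlap between days. The vertical axis is TMM-scaled CPM plus 1 on a logarithmic scale, each point is an animal (circles male, triangles female; red day 5, n = 9, blue day 14, n = 7), and black lines are group means. For every gene shown, all day 14 points lie below all day 5 points, with Ppbp going from at least 100.5 to at most 24.4 CPM.

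The cytokine IL10, which shuts down inflammatory output of macrophages and was the cytokine the study later delivered to the repair site, was itself lower at the later day. Il10 lay at 138, 268 and 493 CPM at day 5 and at 71.1, 142 and 184 CPM at day 14, so the ranges overlapped, but all 7 animals of day 14 were below the day 5 mean. It fell by 0.98 (SE 0.24, adjusted p = 0.0191), and within each sex alone, with fewer animals, it was not called, at -1.32 in males and -0.57 in females. The receptor genes did not pass the test. Il10ra, the ligand-binding chain, had 0.60 (SE 0.21, adjusted p = 0.0932), and Il10rb, the shared chain, had -0.28 (SE 0.088, adjusted p = 0.0621) and was called in 2 of the 16 leave-one-out fits.

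Areg, Ereg and Nrg1, growth factors of the EGF family, also fell. Areg, which encodes amphiregulin, a repair factor, lay at 30.2, 49.9 and 112 CPM at day 5 and 13.1, 17.7 and 28.2 CPM at day 14 and fell by 1.73 (SE 0.26, adjusted p = 0.000669). Ereg, which encodes epiregulin, fell by 2.33 (SE 0.51, adjusted p = 0.008099), and Nrg1, the neuregulin that drives Schwann cell survival and migration, fell by 1.15 (SE 0.28, adjusted p = 0.0178). In the other direction, Pdgfa, a growth factor of mesenchymal cells, rose by 1.19 (SE 0.22, adjusted p = 0.00279) and Vegfb, a growth factor of vessels and neurons, by 0.86 (SE 0.24, adjusted p = 0.0398), a call lost in 10 of the 16 leave-one-out fits (values from 0.72 to 0.98). Over the 26 growth factors and guidance cues tested, 4 fell and 2 rose, beside 3.13% and 3.28% of all genes, and the median was 0.02, with 13 values above 0 and 13 below. The number that rose was 1 to 3 on leaving out a library. Areg (chr5:91139599-91148432, plus strand) and Ereg (chr5:91074622-91093646, plus strand) are neighbours on chromosome 5.

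Enzymes that cut the matrix were among the strongest falls. Mmp9, a gelatinase, lay at 61.4, 111 and 353 CPM at day 5 and at 2.86, 9.68 and 34.5 CPM at day 14 and fell by 3.54 (SE 0.49, adjusted p = 0.000258). Mmp8, a collagenase, went from 13.04, 31.3 and 52.3 CPM to 0.443, 4.18 and 12.2 CPM, a change of -2.57 (SE 0.47, adjusted p = 0.00241). Of 27 matrix proteins and matrix-degrading enzymes tested, 9 fell and 1 rose (median -0.46), beside 3.13% and 3.28% of all genes. The number that fell was 5 without day 14 replicate 7 and 5 without day 14 replicate 2, and the number that rose was 4 without day 5 replicate 8. The others that fell were Vcan, Ecm1, Thbs1, Spp1, Emilin2, Adam8 and Adam9, with log2 fold changes from -1.49 for Vcan, a proteoglycan, to -0.44 for Adam9, a sheddase. Mmp19, a basement membrane protease, rose by 1.14 (SE 0.23, adjusted p = 0.00446), and Mmp12, the macrophage elastase, had 204, 387 and 942 CPM at day 5 and 249, 761 and 1448 CPM at day 14, a change of 0.79 (SE 0.34, adjusted p = 0.177) that did not pass the test. The calls of Thbs1 and of Spp1, the latter osteopontin, were lost in 5 and 7 of the 16 fits that each left out one library, with values from -0.97 to -0.72 and from -0.95 to -0.74.

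Mmp8, Mmp9 and the alarmin S100a8 are also markers of neutrophils, which the sort was set to remove. The neutrophil list (10 genes in the table) summed to 261 to 485 CPM at day 5 and 79.9 to 246 at day 14, and its mean log2(CPM + 1) was lower by 0.99 at day 14 (exact permutation test, two-sided, adjusted p = 0.000612 over 14 lists). In the list S100a9 had a mean of 5.397 CPM at day 5 and 2.72 at day 14, Retnlg 2.47 and 0.137, and Csf3r, which monocytes share, 153 and 114. The granule genes Camp, Ngp and Ltf stayed under 1 CPM in every animal of both days, but they are transcribed mainly by precursors in the marrow and so say little of mature neutrophils in tissue. The chemokine receptor Cxcr2 lay between 2.104 and 7.23 CPM at day 5 and between 2.18 and 8.77 at day 14. S100a8 fell by 1.77 (SE 0.45, adjusted p = 0.02295) and was not called without day 14 replicate 7 (-1.72) or without day 14 replicate 2 (-1.64). The part of neutrophil transcripts in the fall of Mmp8, Mmp9 and S100a8 was not tested. Of the 13 acute phase and alarmin genes tested, 4 fell (S100a8, S100a6, S100a10 and S100a11) and 0 rose, beside 3.13% of all genes that fell, with a median of -0.50. The calls of S100a6, S100a10 and S100a11 were lost in 11, 12 and 13 of the 16 leave-one-out fits, in which 0 (without day 14 replicate 7) to 4 of the list fell. Saa3, an acute phase protein that macrophages make, varied from 81.8 to 2386 CPM among animals of day 5 and from 3.84 to 711 at day 14, and its change of -2.37 (SE 0.74, adjusted p = 0.0607) did not pass, though it did in 2 of the 16 leave-one-out fits.

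Single genes of other functions were also lower at day 14. Ltb4r1, the receptor of the attractant leukotriene B4, fell by 2.92 (SE 0.44, adjusted p = 0.000563), from 16.7, 22.2 and 57.2 CPM to 1.33, 2.77 and 12.6 CPM. Trem1, which amplifies inflammatory signals of myeloid cells, fell by 1.75 (SE 0.33, adjusted p = 0.00339). Itgam, the CD11b chain by which the cells were sorted, fell by 0.89 (SE 0.13, adjusted p = 0.00053), from 579, 849.5 and 1073 CPM to 404, 436 and 545 CPM with no overlap, and its partner Itgb2 fell by 0.46 (SE 0.11, adjusted p = 0.0185). The other sorting markers did not pass the test, with -0.23 (SE 0.14, adjusted p = 0.356) for Cd14, 0.30 (SE 0.15, adjusted p = 0.255) for Fcgr3 and -0.23 (SE 0.12, adjusted p = 0.278) for Emr1, the gene of F4/80. Bst1, a surface enzyme of myeloid cells, did not overlap between the days, with 134, 154 and 175 CPM at day 5 and 24.96, 49.6 and 68.2 CPM at day 14 and a change of -1.64 (SE 0.16, adjusted p = 1.78e-05). Gja1, which encodes the gap junction protein connexin 43, fell by 2.33 (SE 0.34, adjusted p = 0.000501). Upp1, an enzyme of uridine salvage, changed by -1.697 (SE 0.31, adjusted p = 0.00267), and Pecam1, an adhesion molecule of leukocytes, platelets and endothelium, by -1.64 (SE 0.22, adjusted p = 0.000161). Of 10 endothelial markers, 7 (Cdh5, Tek, Tie1, Emcn, Cldn5, Egfl7 and Esam) were under 1 CPM in all 16 animals, beside 16.1, 36.5 and 50.4 CPM for Pecam1 at day 5. Of the other members Kdr, a receptor of vascular growth factor, had a mean of 18.97 CPM at day 5 and 14.6 at day 14, and Vwf, the von Willebrand factor, 2.29 and 2.28. The sort removed cells that carried CD31, the protein of Pecam1, and the part of endothelial transcripts in its fall was not tested.

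Of the lists examined, glucose breakdown and the response to low oxygen had the most members that fell. Of 35 genes tested, 16 fell and 1 rose, where 3.13% of all genes fell, and the median was -0.56. Pdk1, which keeps pyruvate out of mitochondria, lay at 37.7, 74.5 and 109 CPM at day 5 and 17.3, 25.2 and 29.3 CPM at day 14 and fell by 1.56 (SE 0.21, adjusted p = 0.000211). Bnip3, a mitophagy protein induced by low oxygen, fell by 1.33 (SE 0.23, adjusted p = 0.00183), and Egln3, an oxygen-sensing prolyl hydroxylase, fell by 1.63 (SE 0.43, adjusted p = 0.0282), a call lost in 4 of the 16 leave-one-out fits (values from -1.93 to -1.44). The enzymes of glycolysis changed by similar amounts, at -0.99 for Pfkfb3, -0.98 for Eno1, -0.84 for Gpi1, -0.83 for Pgk1, -0.83 for Gapdh, -0.82 for Tpi1, -0.76 for Aldoa and -0.75 for Pkm. Gapdh, often used as a reference transcript, lay at 639, 753 and 959 CPM at day 5 and 268, 430.2 and 621 CPM at day 14, with no animal shared between the ranges. The glucose transporter Slc2a1 fell by 0.56 (SE 0.14, adjusted p = 0.0162). Not all of the list moved, since Hif1a, the oxygen-regulated factor itself, had -0.54 (SE 0.22, adjusted p = 0.152) (called in 1 of the 16 leave-one-out fits, without day 5 replicate 8) and Ldha, which makes lactate, had -0.25 (SE 0.13, adjusted p = 0.278). The 1 member that rose was Egln1, the main prolyl hydroxylase that marks HIF for destruction, by 1.84 (SE 0.28, adjusted p = 0.000752). The medians within males and females alone were -0.60 and -0.47.

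The core of the site bound by hypoxia-inducible factors is ACGTG, and because these genes fell together their promoters are shown for 4 of the members that fell and hold it. Promoter windows were taken from RefSeq (GRCm38.p6) as 250 bases before to 50 after each annotated start, and only the 250 bases before the start are printed, 5′ to 3′ on the gene's strand, with each match of ACGTG or its reverse complement CACGT in capitals.
Bnip3: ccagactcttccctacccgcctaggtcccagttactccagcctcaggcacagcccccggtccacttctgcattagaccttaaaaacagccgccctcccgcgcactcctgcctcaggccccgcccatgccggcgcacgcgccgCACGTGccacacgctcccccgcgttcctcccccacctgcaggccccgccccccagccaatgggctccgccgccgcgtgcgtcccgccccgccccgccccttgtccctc
Egln3: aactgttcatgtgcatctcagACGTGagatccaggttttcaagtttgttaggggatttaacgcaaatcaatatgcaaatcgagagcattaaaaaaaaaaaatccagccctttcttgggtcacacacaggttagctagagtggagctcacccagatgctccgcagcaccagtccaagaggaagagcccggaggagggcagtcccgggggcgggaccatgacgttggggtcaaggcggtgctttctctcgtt
Pgk1: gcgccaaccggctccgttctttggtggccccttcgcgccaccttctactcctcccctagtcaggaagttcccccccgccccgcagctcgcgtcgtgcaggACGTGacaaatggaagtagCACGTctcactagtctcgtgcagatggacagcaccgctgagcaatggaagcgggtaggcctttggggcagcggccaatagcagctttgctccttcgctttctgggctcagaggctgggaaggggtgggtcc
Slc2a1: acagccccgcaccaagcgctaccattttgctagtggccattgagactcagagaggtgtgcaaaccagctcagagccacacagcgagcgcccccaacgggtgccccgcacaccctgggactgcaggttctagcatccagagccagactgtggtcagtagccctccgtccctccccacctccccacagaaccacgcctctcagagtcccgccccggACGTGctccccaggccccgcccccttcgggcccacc
These windows lie at chr7:138909507-138909756 (minus strand) for Bnip3, chr12:54203875-54204124 (minus strand) for Egln3, chrX:106186850-106187099 (plus strand) for Pgk1 and chr4:119108495-119108744 (plus strand) for Slc2a1. The 2 matches in Bnip3 overlap each other in the palindrome CACGTG, 108 bases before the start, and those in Pgk1 begin 150 and 131 bases before it. The matches in Egln3 and Slc2a1 begin 229 and 36 bases before their starts. ACGTG on either strand was in a window of 12 of the 16 members that fell (75%) and in 24 of the 32 tested members with a window (75%), so the share was the same among members that fell and among the rest. Of all 27025 genes with a window 21.8% held it, and of the tested genes with a window 31.3%. Genes with several annotated starts were counted if any window held the letters, and a match is a description of the sequence and not a binding site.

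MHC class II antigen presentation had the highest median, 1.20, of the 22 lists of pathways and functions, which leaves out the cell type markers and the handling list. Of its 13 genes tested, 6 rose and 0 fell, where 3.28% of all genes rose. Cd74, the invariant chain that guides class II molecules, lay at 1593, 2175 and 3719.7 CPM at day 5 and 5045, 6913 and 13782 CPM at day 14 and rose by 1.81 (SE 0.21, adjusted p = 4.16e-05). H2-Eb1, a beta chain, went from 135, 239.8 and 429 CPM to 633, 850.2 and 1946 CPM, a rise of 2.02 (SE 0.25, adjusted p = 8.33e-05). H2-Aa, an alpha chain, rose by 1.96 (SE 0.25, adjusted p = 0.000132) and H2-Ab1, its partner, by 1.796 (SE 0.24, adjusted p = 0.000163). In each of these 4 genes the lowest animal of day 14 lay above the highest of day 5. H2-DMa and H2-DMb1, which exchange peptides in the class II groove, rose by 1.197 (SE 0.27, adjusted p = 0.00964) and by 1.64 (SE 0.28, adjusted p = 0.00159). The other 7 members did not pass, among them the costimulatory ligands Cd80 at 0.67 (SE 0.26, adjusted p = 0.128) and Cd86 at 0.34 (SE 0.16, adjusted p = 0.2395) and the protease Ctss at 0.11 (SE 0.10, adjusted p = 0.554), which trims the invariant chain. H2-DMb2, a close paralog of H2-DMb1 with which reads may be shared, had 2.12 (SE 0.76, adjusted p = 0.103). Within males alone 6 members were called higher and 0 lower, with a median of 1.86, and within females alone 5 higher and 1 lower, with a median of 0.70. H2-DMa was not called in females alone, at 0.70, while H2-Eb1, at 2.56 in males and 1.59 in females, and Cd74, at 2.27 in males and 1.43 in females, were called in both.

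Class II promoters are known for a CCAAT element, read as ATTGG on the other strand, close to the start. H2-Aa and H2-Eb1 are printed for that reason, as the same 250-base RefSeq windows with CCAAT or ATTGG in capitals, a choice made after the values were seen.
H2-Aa: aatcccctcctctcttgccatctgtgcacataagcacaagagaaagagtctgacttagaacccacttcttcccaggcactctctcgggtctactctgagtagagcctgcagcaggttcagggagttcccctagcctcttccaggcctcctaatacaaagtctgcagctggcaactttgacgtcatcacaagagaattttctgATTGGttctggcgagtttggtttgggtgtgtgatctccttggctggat
H2-Eb1: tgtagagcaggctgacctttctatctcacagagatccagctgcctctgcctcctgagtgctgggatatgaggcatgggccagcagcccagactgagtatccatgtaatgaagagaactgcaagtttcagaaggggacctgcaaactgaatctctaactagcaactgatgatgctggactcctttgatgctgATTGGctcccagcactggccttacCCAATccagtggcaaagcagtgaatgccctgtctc
The windows are chr17:34287824-34288073 (minus strand) for H2-Aa and chr17:34305617-34305866 (plus strand) for H2-Eb1. The match in H2-Aa begins 48 bases before the start, and those in H2-Eb1 begin 59 and 35 bases before it. All 4 of the risers that have a RefSeq window held the letters, beside 6 of 9 tested list members with a window (66.7%), 41.1% of all genes with a window and 42.5% of those tested. H2-Aa (chr17:34282744-34287823, minus strand), H2-Ab1 (chr17:34257689-34269419, plus strand) and H2-Eb1 (chr17:34305867-34316674, plus strand) lie within a single stretch of chromosome 17.

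**Figure D2:**
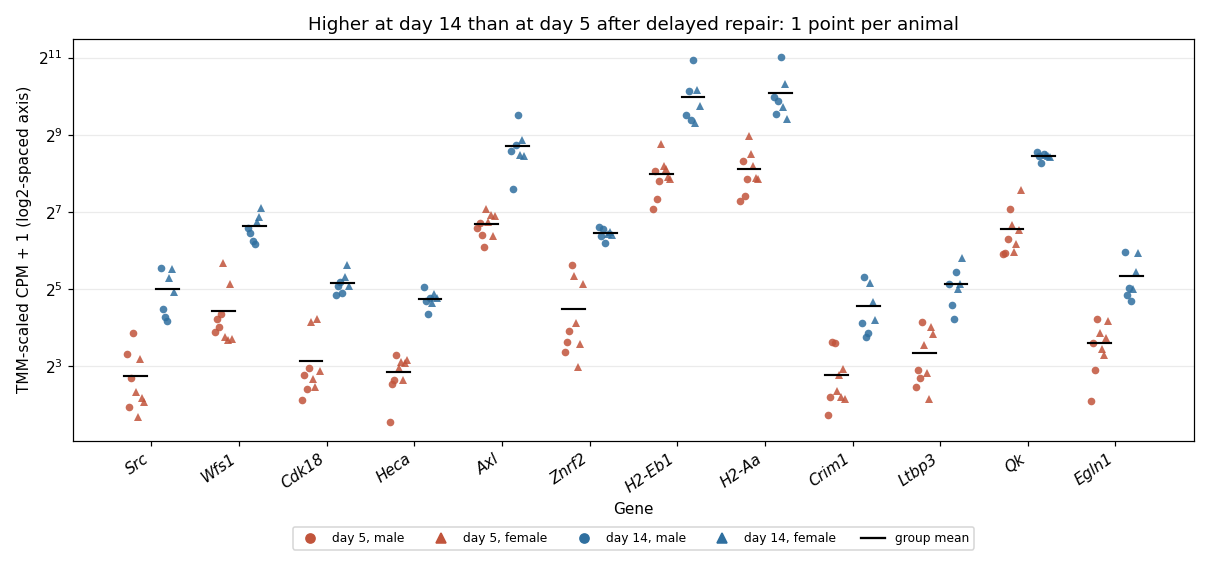
Level of the 12 genes with the largest rises among those with a mean of at least 20 CPM at the higher day and no overlap between days. The vertical axis is TMM-scaled CPM plus 1 on a logarithmic scale, each point is an animal (circles male, triangles female; red day 5, n = 9, blue day 14, n = 7), and black lines are group means. For every gene shown, all day 14 points lie above all day 5 points, with H2-Eb1 going from at most 429 to at least 633 CPM.

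Of 20 genes of efferocytosis and scavenging tested, 4 rose and 1 fell, with a median of 0.06 and 9 values below 0. Of all genes 3.28% rose and 3.13% fell, so the single fall is near the share of all genes. On leaving out a library 2 to 5 rose, with 2 without day 5 replicate 6, day 5 replicate 7, day 14 replicate 6 or day 14 replicate 2. Axl, a receptor kinase for apoptotic cells, lay at 66.8, 104 and 134 CPM at day 5 and 193, 382 and 734 CPM at day 14 and rose by 2.04 (SE 0.21, adjusted p = 2.01e-05). Its bridging ligand Pros1 rose by 0.66 (SE 0.17, adjusted p = 0.0277), a call lost in 5 of the 16 leave-one-out fits. Mfge8, which tethers dying cells to integrins, rose by 1.65 (SE 0.41, adjusted p = 0.0204), and without day 14 replicate 1, the highest animal at 73.7 CPM, its value was 1.21 and it was not called. Cd300a, an inhibitory receptor for lipids of dying cells, rose by 0.45 (SE 0.13, adjusted p = 0.0499) with its call lost in 11 of the 16 leave-one-out fits (values from 0.32 to 0.49), and the related Cd300lf fell by 1.03 (SE 0.25, adjusted p = 0.0189). Mrc1, the mannose receptor, had -0.12 (SE 0.25, adjusted p = 0.823), and Trem2, a lipid-sensing receptor, had 0.20 (SE 0.13, adjusted p = 0.4097), and neither passed.

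Single genes of lipid handling and of the lysosome rose, while the medians of both lists stayed near that of all genes. Gpnmb, a glycoprotein of lipid-laden macrophages, lay at 190.3, 612 and 1555 CPM at day 5 and 1496, 2711 and 6177 CPM at day 14 and rose by 1.95 (SE 0.36, adjusted p = 0.00279). Acp5, a lysosomal phosphatase, rose by 0.92 (SE 0.15, adjusted p = 0.000958), Fabp4, a fatty acid carrier, by 1.19 (SE 0.29, adjusted p = 0.0189), and Abca1, which exports cholesterol, by 0.54 (SE 0.14, adjusted p = 0.0201). Abca1 was not called without day 14 replicate 7 (0.51). Lipa, the acid lipase of lysosomes, went from 382, 498 and 577 CPM to 623, 772 and 900.4 CPM, a rise of 0.62 (SE 0.11, adjusted p = 0.00177), and Cd63, a membrane protein of late endosomes, rose by 0.64 (SE 0.13, adjusted p = 0.00398), both without overlap. Of the 24 lipid-handling and foam cell genes tested, 6 rose and 2, Apoc2 and Spp1, fell, beside 3.28% and 3.13% of all genes, with a median of 0.20. The number that fell was 0 (without day 14 replicate 6) to 3 (without day 14 replicate 1) on leaving out a library. Apoc2, an apolipoprotein, changed by -1.24 (SE 0.31, adjusted p = 0.0207) and was not called without day 14 replicate 6 (-1.16). Apoe, a lipid carrier, had 10981, 17316 and 27525 CPM at day 5 and 14929.5, 27432 and 35689.6 CPM at day 14, a change of 0.63 (SE 0.19, adjusted p = 0.0537), and was called in 3 of the 16 leave-one-out fits. Of the 42 lysosomal genes 5 rose and 1 fell, with a median of 0.01, so the single fall is no more than the share of all genes. Psap, a precursor of lipid-degrading cofactors, rose by 0.48 (SE 0.10, adjusted p = 0.00647), and Atp6v0d2, a subunit of the proton pump, by 2.02 (SE 0.49, adjusted p = 0.0158), from 18.5, 39.3 and 270.1 CPM to 185, 337 and 425 CPM. The 19 genes of cholesterol and fatty acid synthesis gave 2 rises, beside 3.28% of all genes, of Cyp51 by 1.08 (SE 0.18, adjusted p = 0.00143) and of Fdft1 by 0.56 (SE 0.12, adjusted p = 0.00655), both enzymes of cholesterol synthesis, and a median of 0.07.

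Single genes outside these lists were among the largest rises. Src, the founding member of its kinase family, lay at 2.2001, 4.02 and 13.5 CPM at day 5 and 16.9, 29.1 and 45.5 CPM at day 14 and rose by 2.41 (SE 0.35, adjusted p = 0.000457). Src met the filter of 5 CPM through day 14, where it is high, so its change is a description. Wfs1, a protein of the endoplasmic reticulum, rose by 2.24 (SE 0.29, adjusted p = 0.000127), from 11.6, 15.2 and 49.6 CPM to 70.01, 94.1 and 137 CPM. Cdk18, a cyclin-dependent kinase, rose by 2.15 (SE 0.31, adjusted p = 0.000457), Crim1, a transmembrane binder of growth factors, by 1.96 (SE 0.34, adjusted p = 0.00171), and Ltbp3, which holds TGF-beta in its latent form, by 1.904 (SE 0.32, adjusted p = 0.00131). Itgax, the CD11c chain of macrophages and dendritic cells, went from 2.55, 7.08 and 24.6 CPM to 22.96, 45.9 and 99.3 CPM, a rise of 2.33 (SE 0.42, adjusted p = 0.00213). Of the 39 transcription factors listed and tested 3 rose and 1 fell, where 3.28% of all genes rose and 3.13% fell, so the share that fell was near that of all genes. The risers were Irf4 by 1.44 (SE 0.28, adjusted p = 0.00389), Bhlhe41 by 1.82 (SE 0.38, adjusted p = 0.006398) and Rxra, a partner of lipid-sensing nuclear receptors, by 1.37 (SE 0.30, adjusted p = 0.008603), and the faller was Klf2, a quiescence factor, at -1.22 (SE 0.24, adjusted p = 0.00446). Without day 5 replicate 8, 3 of the list fell. The list's median was -0.05 and turned to 0.01 with library size scaling.

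Transcripts of other cell types were looked for in the same libraries. Cd4 rose by 2.78 (SE 0.37, adjusted p = 0.000161), from 2.195, 3.17 and 6.44 CPM to 5.196, 21.5 and 65.3 CPM, and Cd28, a costimulatory receptor of T cells, by 2.16 (SE 0.53, adjusted p = 0.0177). Both met the filter of 5 CPM through day 14, where they are high, with day 5 medians of 3.17 and 3.85 CPM. Their changes are therefore descriptions and their calls support nothing. These genes made the T cell list higher by 0.62 in mean log2(CPM + 1) (exact permutation test, two-sided, adjusted p = 0.000612), with a sum of 4.22 to 13.6 CPM at day 5 and 11.9 to 91.5 at day 14. Cd3e, Cd3d, Cd3g, Cd8a and Cd8b1, which T cells need for their receptor or carry on their surface, stayed under 1 CPM in every animal. Of the B cell list Pax5 was at 0 in all 16 libraries, and the adaptor Blnk, which macrophages also use, rose by 1.18 (SE 0.20, adjusted p = 0.00128). The dendritic cell list summed to 18.2 to 142 CPM at day 5 and 22.6 to 77.1 at day 14. The fibroblast list had a mean log2(CPM + 1) higher by 0.98 at day 14 (exact permutation test, two-sided, adjusted p = 0.0657), with sums of 5.49 to 345 CPM at day 5 and 27.7 to 242 at day 14, and the part of fibroblast transcripts in the rises was not tested. Of the Schwann cell list S100b, Cdh19, Foxd3 and Ngfr stayed under 1 CPM throughout. The B cell list had an adjusted p of 0.0682, and the other 10 lists, that of macrophages included, had adjusted p from 0.109 to 0.991 (exact permutation tests, two-sided).

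**Figure D3:**
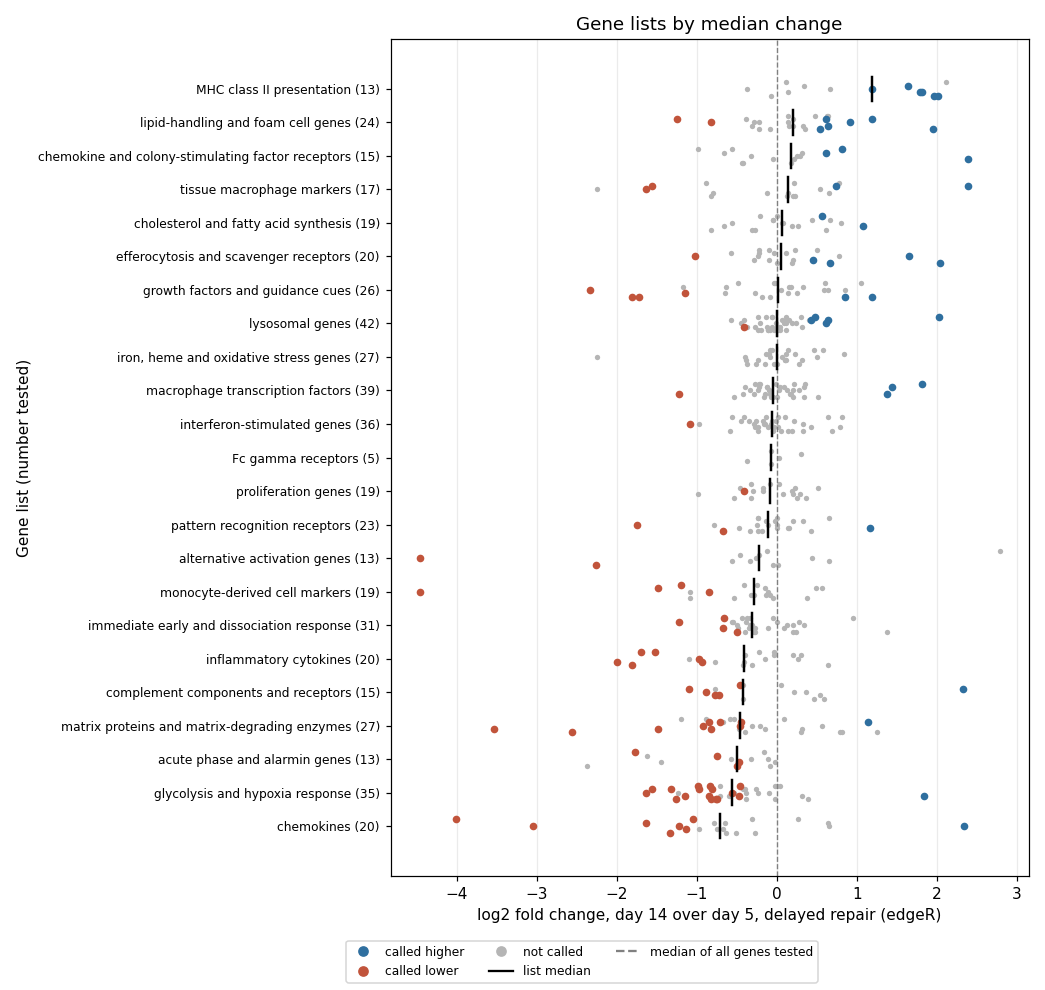
Change of every tested gene of 23 lists. The horizontal axis is edgeR's log2 fold change of day 14 over day 5 after delayed repair, blue and red points are genes called higher and lower, grey points are not called, black ticks are list medians, and the dashed line is the median of all 8529 genes tested. Medians run from -0.71 for chemokines to 1.20 for MHC class II presentation.

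Lists of macrophage identity did not move as blocks, and their counts stand beside 3.28% of all genes that rose and 3.13% that fell. Of 19 markers of monocyte-derived cells 4 fell, F13a1, Vcan, Thbs1 and Chi3l3, and 0 rose, with a median of -0.29, which was 0.07 in males alone and -0.67 in females alone. Only 2 fell without day 14 replicate 7, 2 or 3. F13a1, a clotting factor chain, fell by 1.19 (SE 0.22, adjusted p = 0.00303). The monocyte genes Ccr2 and Ly6c2 had -0.05 (SE 0.35, adjusted p = 0.955) and -0.24 (SE 0.46, adjusted p = 0.806) and opposite signs in the sexes, at 0.94 in males and -0.75 in females for Ccr2 and 0.86 in males and -0.77 in females for Ly6c2, and the test of that difference did not pass (adjusted p = 0.218 and 0.336). Of 17 tissue macrophage markers 2 rose (Cx3cr1, the fractalkine receptor, and Sepp1, a selenium carrier) and 2 fell (Pf4 and Ltc4s, an enzyme of leukotriene synthesis), with a median of 0.15, and leaving out a library gave 1 to 2 that rose and 1 to 3 that fell. Cx3cr1 rose by 2.39 (SE 0.59, adjusted p = 0.0188), but its value was 1.99 and it was not called without day 14 replicate 6. The calls of Sepp1 at 0.74 (SE 0.20, adjusted p = 0.0331) and Ltc4s at -1.56 (SE 0.45, adjusted p = 0.0467) were lost in 8 and 10 of the 16 leave-one-out fits. Of 13 alternative activation genes 2 fell, Chi3l3 among them, and 0 rose, with a median of -0.23. Chi3l3, a chitinase-like protein whose reads may be shared with close paralogs, fell by 4.47 (SE 1.25, adjusted p = 0.0375), yet 809.8 and 658 CPM came from 2 of the 9 animals of day 5, replicates 5 and 8, the other 7 lay between 7.21 and 54.3 CPM, and the call was lost in 8 of the 16 leave-one-out fits. Of 15 receptors for chemokines and colony-stimulating factors 3 rose, Cx3cr1, Csf2rb and Csf2rb2, the last pair by 0.62 (SE 0.17, adjusted p = 0.0323) and 0.82 (SE 0.20, adjusted p = 0.0177), and 0 fell. Csf2rb and Csf2rb2 are neighbouring close paralogs that may share reads, and the call of Csf2rb was lost in 10 of the 16 leave-one-out fits. Without day 14 replicate 6, 1 receptor rose.

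Of 15 complement components and receptors 5 fell and 1, Itgax, rose, beside 3.13% and 3.28% of all genes, with a median of -0.42, which was 0.21 in males alone and -0.33 in females alone. Without day 14 replicate 1, 3 rose. Besides Itgam and Itgb2, those that fell were C5ar1, the receptor of the attractant C5a, at -0.77 (SE 0.13, adjusted p = 0.00183), Cfp, which encodes properdin, at -0.72 (SE 0.11, adjusted p = 0.00075), and Cd59a, an inhibitor of the membrane attack complex, at -1.102 (SE 0.30, adjusted p = 0.0338), whose call was lost in 9 of the 16 leave-one-out fits (values from -1.32 to -0.98). Of 23 pattern recognition receptors and their signalling genes 2 fell, Trem1 and Nfkbia, and 1 rose, Clec7a, the beta-glucan receptor dectin-1, by 1.16 (SE 0.23, adjusted p = 0.00381), so the single rise is near the share of all genes. Without day 5 replicate 8, 4 of them fell. Of 31 immediate early genes, which also answer to tissue digestion, 4 fell, Nfkbia, Klf2, Ier5 and Zfp36, and 0 rose, with a median of -0.31. The number that fell was 8 without day 5 replicate 8. Nfkbia, the inhibitor of NF-kappaB, fell by 0.67 (SE 0.10, adjusted p = 0.00083), and the part of handling in these falls was not tested. Of 36 interferon-stimulated genes 1 fell, Ifit1, an RNA-binding antiviral protein, at -1.09 (SE 0.29, adjusted p = 0.0279), and its call was lost in 6 of the 16 leave-one-out fits and with all 4 macrophage groups in 1 fit. On leaving out a library 0 to 6 of the list fell, with 6 without day 14 replicate 3. In males alone 2 were called higher and 0 lower, and in females alone 1 higher and 8 lower. The list's median was -0.06 over all animals, 0.47 in males alone and -0.60 in females alone. Cxcl10, an interferon-induced chemokine, had -0.98 (SE 0.31, adjusted p = 0.0643) and was called in 3 of the 16 leave-one-out fits. Of 19 proliferation genes 1 fell, the tubulin Tuba1b, at -0.41 (SE 0.09, adjusted p = 0.008904), and 0 rose. With library size scaling Tuba1b was not called, at -0.35. The counts of 1 for the interferon and proliferation lists stand beside 3.13% of all genes. None of the 27 genes of iron, heme and oxidative stress and none of the 5 Fc gamma receptors was called by edgeR's test over all animals, and their medians were 0.01 and -0.07. In females alone 4 of the iron, heme and oxidative stress genes were called higher and 2 of the Fc gamma receptors lower, and in males alone 0 of either list. The Fc gamma receptor median was 0.65 in males and -0.55 in females.

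The course after delayed repair was then set beside that after immediate repair, which used separate animals at both days. Of 8507 genes tested there, 964 were called between day 14 and day 5 (11.3%), 453 higher and 511 lower. Of the delayed repair calls, 539 were tested in both, and 531 of these had the same direction after immediate repair. The genes called in both in the same direction numbered 316, which is 57.8% of the delayed calls and 32.8% of the immediate ones. The difference between the courses, tested as the interaction of day and repair over 32 libraries, was called for 2 of 8949 genes (0.0223%), Heca and Osm, while 323 had an unadjusted p under 0.05. Most of the changes described above are therefore not shown to be particular to delayed repair. For the chemokines the medians were -0.71 after delayed and -1.23 after immediate repair, for the inflammatory cytokines -0.41 and -1.29, for glycolysis and hypoxia -0.56 and -0.68, and for MHC class II 1.20 and 1.61.

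**Figure D4:**
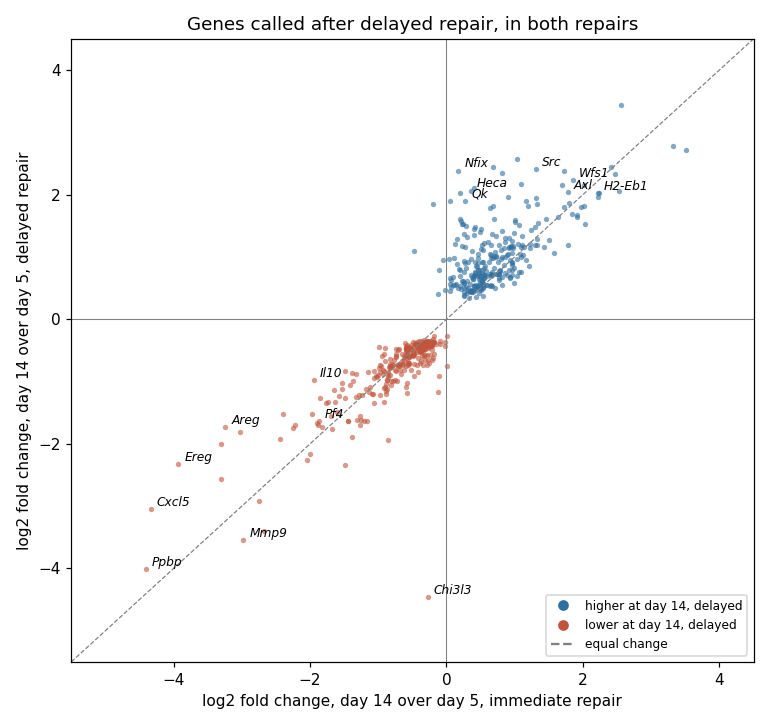
Genes called between day 14 and day 5 after delayed repair, in both kinds of repair. Axes are log2 fold changes of day 14 over day 5 after immediate repair (horizontal) and delayed repair (vertical), each of the 539 points is a gene (blue higher, red lower after delayed repair), and the dashed line marks equal change. Of these, 531 lie in the quadrants of equal sign, with Heca at 2.07 after delayed and 0.36 after immediate repair, Qk at 1.8996 and 0.28, and Nfix at 2.39 and 0.18.

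Osm, the gene of oncostatin M, a cytokine of the IL6 family, showed no called change after delayed repair and fell after immediate repair. On the scale of all 32 libraries its animals lay at 56.9, 90.3 and 112 CPM at day 5 and at 57.2, 82.1 and 129.8 at day 14 after delayed repair, and at 98.99, 159.9 and 200.1 and 39.9, 64.5 and 84.01 after immediate repair. The delayed change of -0.03 (SE 0.18, adjusted p = 0.949) stood against -1.29 after immediate repair, and the interaction was 1.27 (SE 0.24, adjusted p = 0.0328). Osm (chr11:4236420-4241026, plus strand) is next to Lif (chr11:4257557-4272514, plus strand), whose interaction of 1.23 (SE 0.53, adjusted p = 0.9999) was not called. Il10 had levels of 138, 266 and 485 and 70.9, 140.1 and 181 CPM after delayed repair and 213, 553 and 734 and 85.4, 131 and 208 after immediate repair, and its interaction of 0.98 (SE 0.33, adjusted p = 0.9999) was not called, with an unadjusted p of 0.00555. The interactions of Il1b at 0.93 (SE 0.32, adjusted p = 0.9999), Il6 at 1.39 (SE 0.51, adjusted p = 0.9999) and Tnf at 0.71 (SE 0.41, adjusted p = 0.9999) were not called either.

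Heca, a homologue of the fly gene headcase, showed another pattern, with its lowest level at day 5 after delayed repair. Its animals lay at 1.87, 6.698 and 8.52 CPM at day 5 and 19.2, 25.8 and 32.1 at day 14 after delayed repair, and at 10.8, 15.99 and 31.04 and 11.8, 22.3 and 33.7 after immediate repair. It rose by 2.07 (SE 0.22, adjusted p = 3.36e-05) after delayed repair, and the interaction was 1.72 (SE 0.32, adjusted p = 0.0328). Qk, an RNA-binding regulator of splicing, lay at 57.5, 76.5 and 188 and 303, 345 and 369.6 CPM after delayed repair and at 111, 239 and 382 and 177, 291 and 372 after immediate repair, with an interaction of 1.63 (SE 0.32, adjusted p = 0.0507). Qk rose by 1.8996 (SE 0.21, adjusted p = 3.56e-05) after delayed repair. Nfix, a transcription factor, lay at 0.0422, 1.15 and 2.23 CPM at day 5 and 3.91, 6.37 and 7.87 CPM at day 14 after delayed repair. It met the filter only through 6 animals of day 14, the group where it is high, so its change of 2.39 is a description and its call supports nothing, and its interaction was 2.22 (SE 0.52, adjusted p = 0.275). Genes singled out after their values were seen showed a like order of the groups, namely Ranbp9, a scaffold protein, with 6.23, 10.4 and 21.7 and 20.8, 50.95 and 54.9 CPM after delayed repair and 9.38, 28.996 and 50.3 and 17.04, 39.02 and 56.4 after immediate repair, Znrf2, a ubiquitin ligase, and Cul3, a ubiquitin ligase scaffold. They rose by 2.11 (SE 0.23, adjusted p = 3.36e-05) for Ranbp9, 2.02 (SE 0.34, adjusted p = 0.00151) for Znrf2 and 1.601 (SE 0.32, adjusted p = 0.00472) for Cul3, and their interactions of 1.72 (SE 0.43, adjusted p = 0.376), 1.84 (SE 0.46, adjusted p = 0.376) and 1.403 (SE 0.41, adjusted p = 0.725) were not called. The calls of the interaction were fragile, since Heca was lost in 23 and Osm in 21 of the 32 fits that each left out one library, with values of 1.55 to 1.83 and 1.13 to 1.35.

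**Figure D5:**
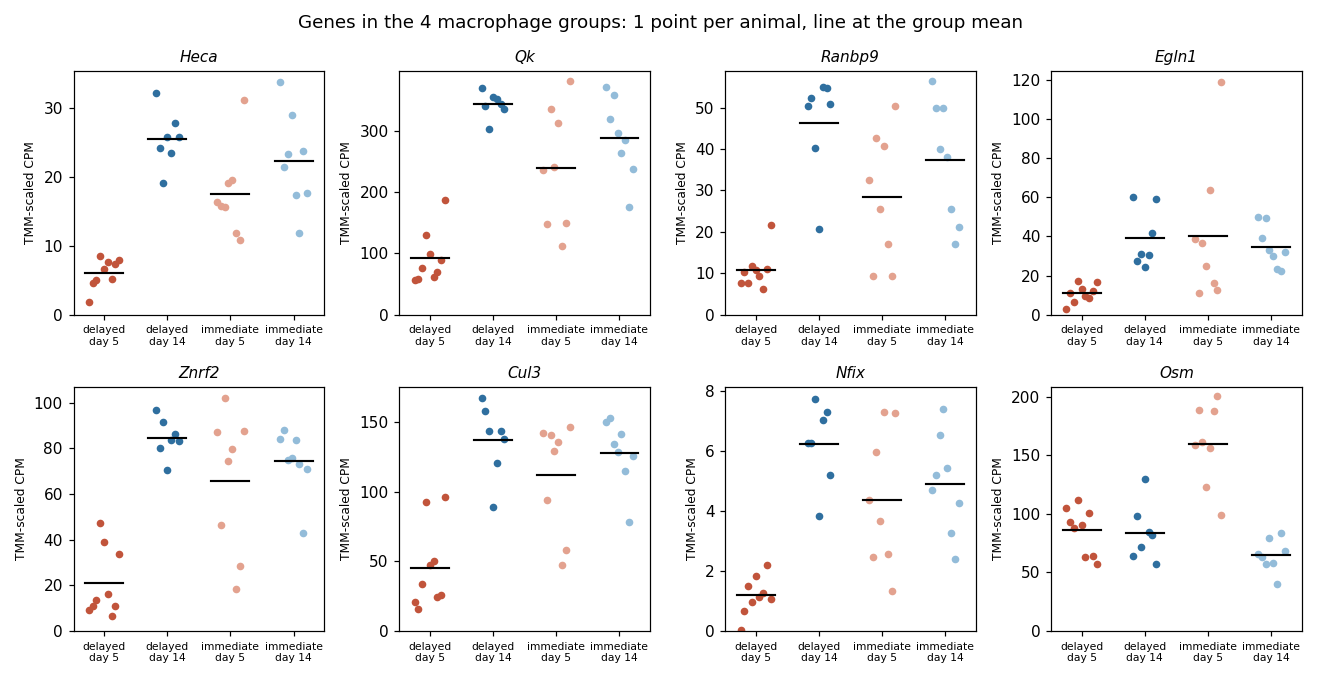
Levels of Heca, Qk, Ranbp9, Egln1, Znrf2, Cul3, Nfix and Osm in the 4 macrophage groups. The vertical axes are TMM-scaled CPM over all 32 libraries, starting at 0, each point is an animal, and black lines are group means. The first 7 genes have their lowest mean at delayed day 5, as for Heca with a highest animal at 8.52 CPM against a lowest of 10.8 at immediate day 5, while Osm is highest at immediate day 5.

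The day change differed between males and females for 1 of 8529 genes by edgeR's interaction test (0.0117%), with 1418 at an unadjusted p under 0.05. Trim12c, of a tripartite motif family whose close paralogs may share reads, lay at 6.16 to 8.13 CPM in the 4 males and 14.6 to 19.7 in the 5 females of day 5, and at 11.9 to 17.1 in the 4 males and 4.23 to 8.25 in the 3 females of day 14, so the sexes changed places (males minus females 2.52, SE 0.31, adjusted p = 0.00276). Without day 14 replicate 1, 281 genes were called, and without day 14 replicate 2, 10. Fitted in males alone, 117 of 7669 genes were called (70 higher, 47 lower), and in females alone 399 of 8061 (188 higher, 211 lower). Of the calls of the whole comparison, 473 had a value in both of these fits, and 473 of them had the same sign in both sexes, though these fits use the animals from which the calls were made and are not independent of them. Besides the monocyte, complement, interferon and Fc gamma receptor lists, medians had opposite signs in males and females for efferocytosis (0.47 and -0.09), tissue macrophage markers (0.48 and -0.28), alternative activation (0.33 and -0.57), growth factors (0.39 and -0.21), chemokine and colony-stimulating factor receptors (0.25 and -0.11), iron and heme (-0.18 and 0.13), transcription factors (0.10 and -0.11), proliferation (0.04 and -0.12) and lysosomal genes (0.02 and -0.002). These differences between list medians were not tested.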

How the data were processed

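RNA from 1000 sorted macrophages per animal was amplified and sequenced, and, per the study's methods and the submitters' processing notes, reads were trimmed with cutadapt 1.8, aligned to mm10 with TopHat2 2.1.1 and quantified with Cufflinks 2.2.1 and Cuffnorm. The authors deposited a table of estimated counts for 23361 genes, of which 0.952% of the values were not whole, and these were rounded to whole numbers. The step that wrote these values is not given in the sources used here, and amplification without molecular identifiers means that intervals and floors cover counting error only. Alignment and Cufflinks were set to a first-strand library type per the study's methods, but whether the step that wrote the deposited counts used strand is not given, so counts of overlapping genes are uncertain.

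Delayed repair at day 14 (n = 7) was compared with day 5 (n = 9) with edgeR 4.0.16 in R 4.3.3 (quasi-likelihood F test, TMM scaling, genes reaching 5 CPM in 6 or more libraries, Benjamini-Hochberg adjusted p under 0.05 over all genes tested). Standard errors were taken from the size of each log2 fold change and the root of its F statistic. The interactions of day with repair (32 libraries) and with sex used the same filter and test. Marker scores of 14 cell type lists, each the mean log2(CPM + 1), were compared by exact permutation. Replicates are separate animals, and 0 of 120 pairs of libraries held identical values. Totals ranged from 14928745 to 27972884, and 3 counts are 0.107 to 0.201 CPM. On simulated data of 9 against 7 libraries (8415 genes) the test recovered 85.7% of 2-fold and 100% of 4-fold changes with 10 false calls, and for day by repair (8815 genes) 57.1% and 98.0% with 4. The simulated counts were drawn independently, without the shared difference between the sexes seen at day 5. These rates therefore hold for that setting only.

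The members and gene lists were chosen with earlier results of these data known. Named were up to 12 rises and 12 falls of largest size among called genes without overlap and with a mean of at least 20 CPM in the higher group, up to 4 called members of each of the lists by p, genes the study names for macrophages, sorting markers, cell type markers and up to 5 genes per interaction. Further list members, the platelet list and the CCAAT search were added after values were seen. Gene positions are those of GENCODE for GRCm38 and promoters those of RefSeq GRCm38.p6. The alternatives were library size scaling, DESeq2 1.42.0, limma 3.58.1 (voom with sample weights), other filters and thresholds, sex as a covariate, a replicate block, all 4 macrophage groups in 1 fit, each sex alone (added after values were seen) and leaving out each library. Ly6g, Trac and Trbc1 were not analysed here, and a few members of the lists are counted but not reported by name here.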

Additional observations from a re-analysis of the deposited data

Results flagged for a closer look

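Over 278 checks within a group, of the level of a gene, the library total or the number of genes detected, 17 values of single animals lay apart. All of these were levels of genes, and chance alone flags about 1 in 20 groups. Levels are TMM-scaled CPM, with the nearest animal of the same group in parentheses. At day 14, replicate 1 stood high for Cap1 at 243 (53.4) and low for Pros1 at 65.5 (96.8) and Tuba1b at 50.9 (65.8). Replicate 4 of day 14 stood high for H2-DMb1 at 220.03 (82.9) and Trem2 at 488 (367) and low for Ranbp9 at 21.3 (41.0) and Ptgs2 at 294 (767). Replicate 3 of day 14 stood high for Ier5 at 349.8 (285) and low for Tgfb1 at 72.3 (98.5), replicate 2 stood low for Lif at 0.942 (3.28), and replicate 8 stood low for Cd86 at 166 (263). At day 5, replicate 8 stood high for Mif at 273 (197), S100a11 at 280.1 (222) and Trem2 at 452 (332). Replicate 1 of day 5 stood low for Heca at 1.90 (4.75), replicate 2 for Tgfb1 at 21.1 (56.7) and replicate 6 for H2-Ea-ps, a pseudogene of the class II region, at 0.191 (58.0).

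The change between the days differed between delayed and immediate repair for Heca by 1.72 and for Osm by 1.27 on the log2 scale (edgeR, adjusted p = 0.0328 for each). The change differed between males and females after delayed repair for Trim12c by 2.52 (edgeR, adjusted p = 0.00276).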

How the results depend on the processing

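Called genes numbered 891 with DESeq2, 1020 with limma-voom and sample weights, 117 in males alone, 240 at an adjusted p under 0.01 and 1875 at an unadjusted p under 0.05, against 547. Changes of 2-fold or more numbered 90 in males alone against 194, and the other settings kept both counts within 1.5 times. Leaving out 1 library gave 370 calls (without day 14 replicate 7) to 670 (without day 5 replicate 8). The interaction of day and repair was called for 2 genes, 9 with DESeq2, 0 with library size scaling, 323 at an unadjusted p under 0.05 and 0 to 3 on leaving out a library. That of day and sex was called for 1 gene, 166 with DESeq2, 1418 at an unadjusted p under 0.05 and 1 to 281 on leaving out a library. Of 14 marker scores 2 passed, and 2 to 4 on leaving out a library (4 without day 5 replicate 8 or day 14 replicate 1).

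Of 110 called genes that are named, 87 kept the call in every leave-one-out fit that tested them (10 of 16 for Nfix), 23 lost it in at least 1, and 0 changed sign in any setting. Calls were lost by Cd59a, Ltc4s, S100a10, S100a11, S100a6 and Tuba1b with library size scaling, Chi3l3, Csf3, Cx3cr1, S100a8 and Spp1 with limma-voom, Chi3l3 with DESeq2, Cd300a, Ltc4s and Vegfb with filterByExpr, these 3 and Csf2rb, S100a10, S100a11 and Sepp1 with no filter, Cd300a, Chi3l3, Ltc4s and S100a11 with sex as a covariate, and Cxcl12 and Ifit1 with all 4 macrophage groups in 1 fit. In males alone 65 of 99 and in females alone 49 of 101 lost it, with fewer animals. Genes that were not called and changed sign were Il6 at 0.0658 and Osm at 0.0431 with library size scaling, Il6 at 0.13 with limma-voom, Ccr2 at 0.12 and Ly6c2 at 0.0696 with sex as a covariate, Ccr2 at 0.94, Ly6c2 at 0.86 and Mrc1 at 0.55 in males alone, and Cd14 at 0.0837, Ctss at -0.0282, Fcgr3 at -0.0383, Il1a at 0.56, Il1b at 0.0554, Il6 at 0.91 and Osm at 0.00599 in females alone. On leaving out a library Ccr2 ran from -0.36 to 0.11, Il6 from -0.22 to 0.0786, Ly6c2 from -0.76 to 0.000464, Mrc1 from -0.22 to 0.0647 and Osm from -0.17 to 0.0489. The causes were not tested.

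Samples of the 2 days share only replicate numbers. Over 7 shared numbers the correlation of deviations ran from -0.21 to 0.48, was above 0.1 for 4, and 1 sample correlated best with its own number. With the number as a replicate block 545 genes were called, 405 of them among the 547, 13 of the 110 named calls were lost (Adam9, Cd300a, Cd300lf, Csf2rb, Csf2rb2, Csf3, Cxcl1, Egln3, Ltc4s, Nrg1, Ptgs2, Spp1 and Vegfb), and Mrc1 had 0.11. Depth limits levels under 0.201 CPM, and the sexes could not be separated from shared handling.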

Other observations

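Levels of 2 genes fell into separate clusters of animals that crossed the days. Cap1, which encodes an actin-binding protein, lay at 46.5 and 57.4 CPM in day 5 replicates 7 and 8 and between 218 and 272 in the other 7 animals of day 5, while at day 14 replicate 1 had 243 and the other 6 animals 36.4 to 53.4. H2-Ea-ps, annotated at chr17:34341959-34344645 on the minus strand of GRCm38, lay at 0.191 CPM in day 5 replicate 6 and between 58.0 and 215 in the other 8 animals of day 5. At day 14 it lay at 0.143, 0.0428 and 0.495 in replicates 1, 3 and 6, at or near the floor, and between 665 and 1249 in the other 4.

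The genes that rose had longer transcripts than those that fell. The longest coding transcript had a median length of 3966.5 bases among those higher at day 14, 2303 among those lower and 3106 among all genes tested, with 98.1% of the tested genes matched, and the median GC content was 51.0%, 50.04% and 49.6%.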
